A study of Mus musculus with 18 samples.

Results

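The 10 genes described here belong to the integrated stress response and the unfolded protein response, and were taken by symbol from the 15730 genes of the deposited count table. All 10 (Atf4, Atf5, Ddit3, Xbp1, Trib3, Asns, Psat1, Phgdh, Sesn2 and Hspa5) were found, and all passed the filter on low counts. Their RNA was measured by sequencing in the dorsal root ganglia, which hold the cell bodies of sensory neurons, that serve the sciatic nerve, from C57BL/6 mice aged 6 to 8 weeks. Every mouse had surgery, no altered allele is named, and the ganglia were taken after 24 hours. SNA_Saline is injury of the sciatic nerve with saline, and Sham_Saline the sham operation with saline. SNA_NAC is the same nerve injury with the antioxidant N-acetyl-cysteine at 30 mM, and Sham_H2O2 the sham operation with 13 mM hydrogen peroxide. DCA is injury of the dorsal columns, the tract in the spinal cord that holds the central branches of these neurons, and LAM is laminectomy, the removal of bone that exposes the cord. Each group had 3 samples, each a pool of ganglia from 2 mice, so p-values measure the spread between such pools. All groups had been operated on, so no group shows the ganglion without surgery.

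The integrated stress response starts when one of several kinases phosphorylates the initiation factor eIF2, which lowers protein synthesis in general and raises the translation of Atf4 mRNA. The ATF4 protein then switches on genes for amino acid synthesis, amino acid import and tRNA charging, and, through Ddit3 (CHOP) and Trib3, genes that tune the response or favour cell death. The unfolded protein response of the endoplasmic reticulum uses one of the same kinases, PERK, beside IRE1, which splices Xbp1 mRNA, and ATF6, and its best known target is the chaperone Hspa5 (BiP). Because ATF4 and CHOP are controlled at translation, and XBP1 by splicing, the level of their mRNA is only part of their regulation. Gene counts show neither the splicing of Xbp1 nor any protein.

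Stretches of promoter around 3 starts of transcription show exact matches to known response elements of these pathways. Windows of 300 bases, 250 before and 50 after a start, were taken from RefSeq on GRCm38.p6, and all 10 members had one, with 12 windows in all. The core of the C/EBP-ATF response element (CARE), to which ATF4 binds, was searched on both strands as TGATGNAA and found in 2 of the 12 windows, against 3.97% of 32851 promoter windows of all genes. The endoplasmic reticulum stress element (ERSE), spelled as CCAAT and CCACG with 9 bases of any kind between them, was found in 1 of the 12, against 0.119% of all. The cyclic AMP response element TGACGTCA, present in 1.79% of all windows, and the core TGACGTGG, to which XBP1 and ATF6 can bind, present in 0.676%, matched none of the 12. No window held more than 1 of the 4 motifs, so no matches overlapped. A match is a description of the letters and not a measured site. Elements spelled otherwise or lying outside the windows were not searched. The stretches below run 5′ to 3′ along the gene from 120 bases before to 30 bases after the start, with the matched element in capitals. Asns lies at chr6:7693180-7693329 (minus strand) with the match at bases -23 to -16, Trib3 at chr2:152344031-152344180 (minus strand) with the match on the opposite strand at bases 15 to 22, and Hspa5 at chr2:34771970-34772119 (plus strand) with the match at bases -65 to -47.
Asns: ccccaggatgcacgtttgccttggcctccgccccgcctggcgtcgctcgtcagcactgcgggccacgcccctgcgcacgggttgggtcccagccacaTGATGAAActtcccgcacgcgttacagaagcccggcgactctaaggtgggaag
Trib3: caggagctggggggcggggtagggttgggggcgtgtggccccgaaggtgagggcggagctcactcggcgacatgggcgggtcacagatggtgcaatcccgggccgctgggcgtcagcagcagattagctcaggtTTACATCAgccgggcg
Hspa5: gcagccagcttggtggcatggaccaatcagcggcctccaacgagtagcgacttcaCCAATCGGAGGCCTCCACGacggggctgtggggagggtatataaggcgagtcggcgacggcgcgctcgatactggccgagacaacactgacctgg

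Levels between genes can be compared only per length, for which the deposited FPKM values (fragments scaled by transcript length and by library size) serve. Hspa5, with group means from 102.5 FPKM in DCA to 148.1 in SNA_NAC, and Atf4, with 107.3 in DCA to 152.8 in SNA_Saline, were the most abundant. Asns followed with 75.2 to 95.8 FPKM, then Xbp1 with 31.9 to 39.7. Atf5 (19.2 to 23.7), Psat1 (14.9 to 17.3), Ddit3 (9.30 to 16.8) and Phgdh (8.31 to 15.8) were in the middle of the set. Trib3 (0.968 to 1.70) and Sesn2 (0.829 to 1.61 FPKM) were close to the floor, and in 1 library Trib3 rested on 10 reads.

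Within a gene, levels are given as CPM, counts scaled to a common library size. The plot of CPM by library shows every value.

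**Figure D1:**
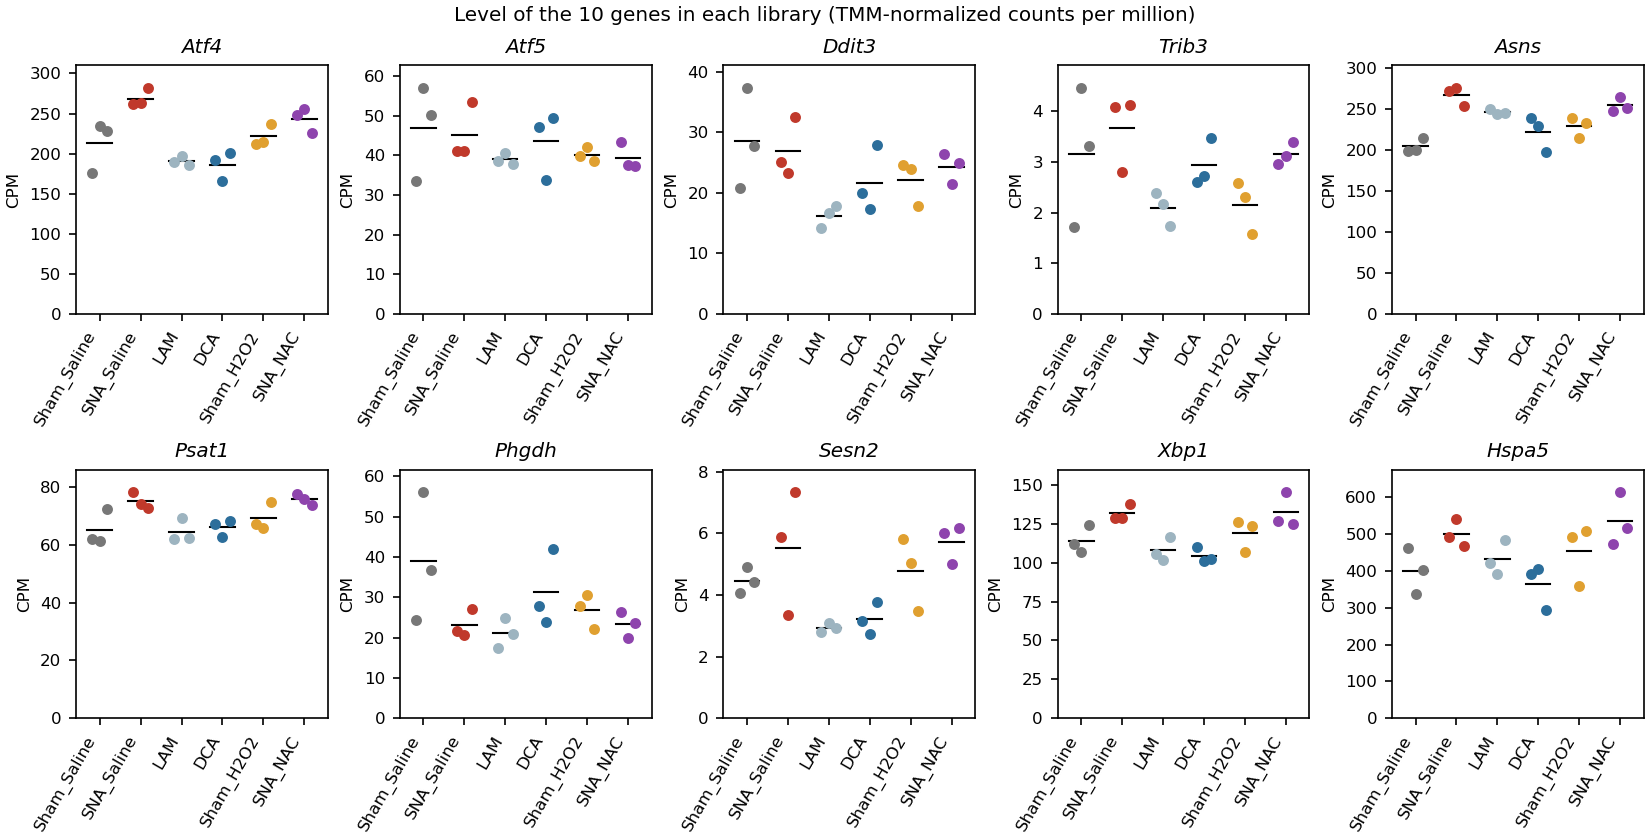
Level of each of the 10 genes (CPM, linear axis from 0) in the 3 libraries of each group, with the group mean as a bar. Asns shows SNA_Saline at 254.2 to 276.2 CPM above Sham_Saline at 198.5 to 215.3, while for Atf5, Ddit3, Trib3 and Phgdh the 3 Sham_Saline libraries are spread widely.

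The libraries held 6472476 to 42435331 counted reads, and counting error is therefore largest for Trib3 and Sesn2. Markers of neurons were present in every library, with sums of 9 genes from 7159 to 11592 CPM, as were those of satellite glia and Schwann cells. Summed markers of skeletal muscle ran from 6.85 to 1151 CPM within Sham_Saline alone. The library at 1151 CPM, Sham_Saline replicate 2, also had the highest marker sums of neurons (11592 CPM) and satellite glia (3336 CPM). It was the highest of all 18 for 4 of the 10 members and the lowest for 1. Its rise of counts with the GC share of a gene was the steepest, 0.43 on the log2 scale per SD of GC. The other 17 libraries lay between -0.22 and 0.25. These values stand beside each comparison with Sham_Saline, and their part in the results was not tested apart from the fits named below.

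The first comparison asked how the genes answer injury of the peripheral axon. After sciatic nerve injury, Asns was the 1 member of 10 that passed the test, with a rise of 1.31-fold. In edgeR's quasi-likelihood test, 2.73% of all genes tested had a Benjamini-Hochberg adjusted p under 0.05 in this comparison, and 2.16% were called higher. The 9 other members did not pass. Their median difference together with Asns was 0.22 on the log2 scale, against -0.03 for all genes tested. In bulk tissue, fewer cells of a type and less RNA per cell cannot be told apart.

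**Figure D2:**
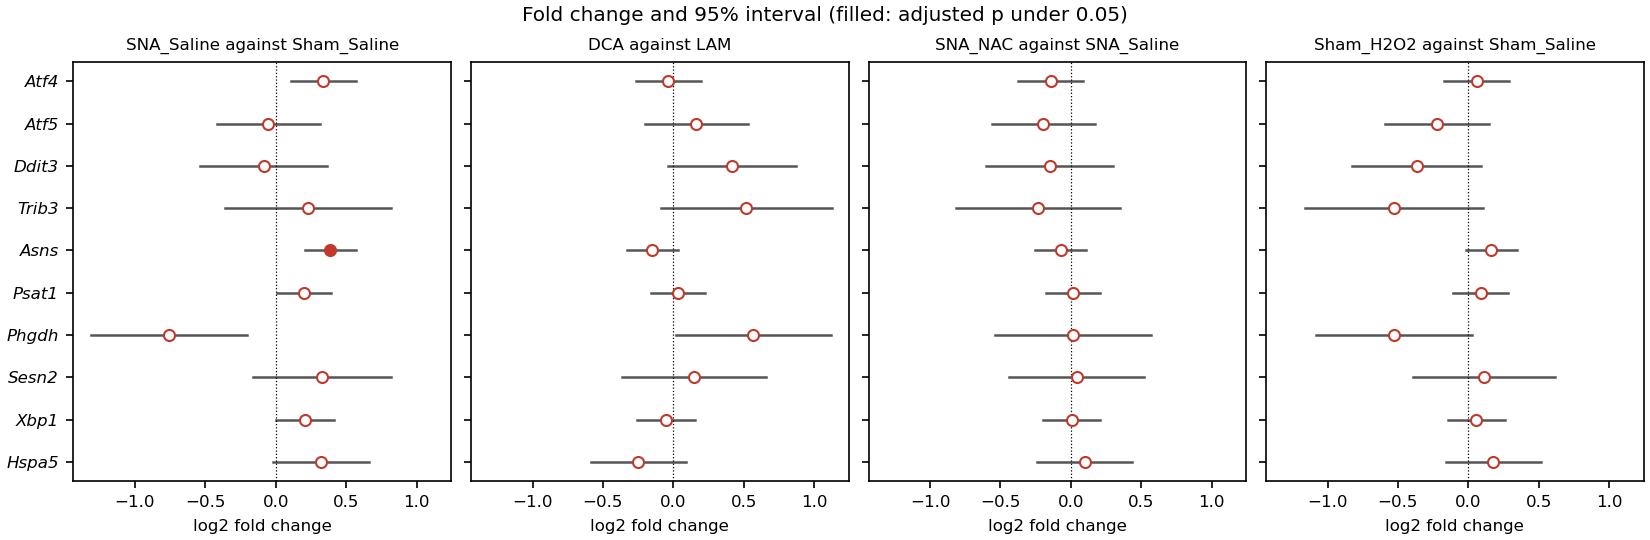
Log2 fold change of the 10 genes in 4 comparisons, with 95% intervals. A filled point has an adjusted p under 0.05, which holds for Asns in SNA_Saline against Sham_Saline (0.39) and for no other point shown.

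Atf4, the central transcription factor, stood at 175.7, 234.6 and 227.7 CPM in Sham_Saline and at 261.6, 262.5 and 282.0 CPM in SNA_Saline. The groups did not overlap, and the lowest value was that of Sham_Saline replicate 1. The log2 fold change was 0.34 (SE 0.11, 95% interval 0.11 to 0.57), with an edgeR adjusted p of 0.110. Atf5, a related factor that is also controlled at translation and is linked to mitochondrial stress, had 33.6, 57.0 and 50.2 CPM after the sham operation and 41.1, 41.1 and 53.4 after injury. Those ranges overlapped throughout, and the difference was -0.05 on the log2 scale (interval -0.42 to 0.31).

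Ddit3, the gene for CHOP, had 20.8, 37.3 and 27.7 CPM in Sham_Saline and 25.0, 23.2 and 32.6 in SNA_Saline, and here too the injured values lay inside the range of the controls (log2 difference -0.09, interval -0.54 to 0.37). Xbp1, the factor activated by IRE1, had 111.9, 106.6 and 124.1 CPM against 128.9, 128.4 and 137.7 after injury. Its groups did not overlap, and its log2 difference of 0.21 (interval 0.0018 to 0.41) had an edgeR adjusted p of 0.220. Trib3, a pseudokinase that dampens ATF4 signalling, ranged from 1.72 to 4.46 CPM in Sham_Saline and from 2.81 to 4.13 in SNA_Saline, with an interval of -0.36 to 0.81 that spans both directions.

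Among the enzymes of amino acid synthesis, Asns, which makes asparagine and is a textbook ATF4 target, had 198.5, 200.6 and 215.3 CPM in Sham_Saline and 272.6, 276.2 and 254.2 CPM in SNA_Saline. Every injured sample was above every control. The means were 204.8 ± 9.14 and 267.6 ± 11.8 CPM (SD, n = 3 per group). The log2 fold change was 0.39 (SE 0.086, 95% interval 0.20 to 0.57; edgeR adjusted p = 0.0212). Each sequencing lane held 1 sample of each group, and within the lanes the log2 differences were 0.46, 0.46 and 0.24. The gene (ENSMUSG00000029752) spans chr6:7675169-7693254 on the minus strand of mm10, with no exon shared with another annotated gene. The call was lost without Sham_Saline replicate 2 (0.37, edgeR adjusted p = 0.0952), without SNA_Saline replicate 1 (0.37, adjusted p = 0.112) or without SNA_Saline replicate 2 (0.36, adjusted p = 0.118), and when only these 6 samples were fitted (0.38, adjusted p = 0.298; 0.422% of all genes called). Asns was called in 12 of the 16 alternative fits, and their log2 differences ran from 0.30 to 0.42.

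Psat1 and Phgdh belong to the serine synthesis pathway, Phgdh as its first enzyme and Psat1 as the next, and their differences had opposite signs. Psat1 had 61.9, 61.2 and 72.5 CPM in Sham_Saline and 78.2, 74.0 and 72.7 in SNA_Saline. The groups were separated by a narrow margin, and the log2 difference of 0.20 had an edgeR adjusted p of 0.209. Phgdh had 24.3, 56.1 and 36.8 CPM in Sham_Saline against 21.6, 20.5 and 27.0 after injury. The controls reached from within the injured range to well above it, and the difference of -0.76 (interval -1.32 to -0.21; edgeR adjusted p = 0.131) passed only without Sham_Saline replicate 1 (-1.01, adjusted p = 0.0192) or with the offsets described below. For the fit without that library the share of all genes called is not given here. It was 37.3% in SNA_NAC against Sham_Saline and 31.8% in Sham_Saline against LAM. In the annotation, 19 other genes carry stretches nearly identical to the Phgdh transcript and 1 to that of Psat1 (at least 90% identity over at least 200 bases), so the share of reads counted for them is uncertain.

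Sesn2, a leucine sensor that restrains the growth kinase mTORC1, had 4.05, 4.93 and 4.41 CPM in Sham_Saline and 5.87, 3.35 and 7.34 in SNA_Saline. Injured samples stood both above and below the controls (log2 difference 0.32, interval -0.17 to 0.81). Hspa5, the main chaperone of the endoplasmic reticulum, had 462.7, 337.4 and 401.6 CPM against 491.8, 541.0 and 466.8 after injury. The groups lay next to each other without overlapping, and the log2 difference was 0.32 (interval -0.02 to 0.66; edgeR adjusted p = 0.243). In all, 5 of the 10 members (Atf4, Asns, Psat1, Xbp1 and Hspa5) had no overlap, each higher after injury, against 19.1% of all genes with no overlap and 10.3% in that direction. At an unadjusted p under 0.05 there were 5 of 10 (Atf4, Asns, Psat1, Phgdh and Xbp1), against 22.5% of all genes.

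Several of these differences moved when the GC share of the genes was taken into account. The libraries differed in how counts depend on GC (-0.04, 0.43 and 0.16 per SD of GC in Sham_Saline, -0.07, -0.17 and 0.12 in SNA_Saline), and a fit with library offsets for the GC share and length of transcripts called 5 of the 10 members. That fit called 7.44% of all genes, 5.17% higher and 2.27% lower. Atf4 (0.61, edgeR adjusted p = 0.00690), Trib3 (0.69, 0.0434), Asns (0.30, 0.00738) and Sesn2 (0.75, 0.0161) were higher after injury, and Phgdh (-0.35, 0.0309) was lower. Sesn2, Trib3, Phgdh and Atf4, all between 55.5% and 58.7% GC, gained the call, while Asns at 47.7% kept it with a smaller difference. Atf5, the member richest in GC at 61.7%, turned from -0.05 to 0.49 (edgeR adjusted p = 0.0658). Ddit3 stayed on the negative side, at -0.24 (interval -0.73 to 0.24). With the lane as a block beside the offsets, 4 members were called, against 6.44% of all genes, and Trib3 was not.

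**Figure D3:**
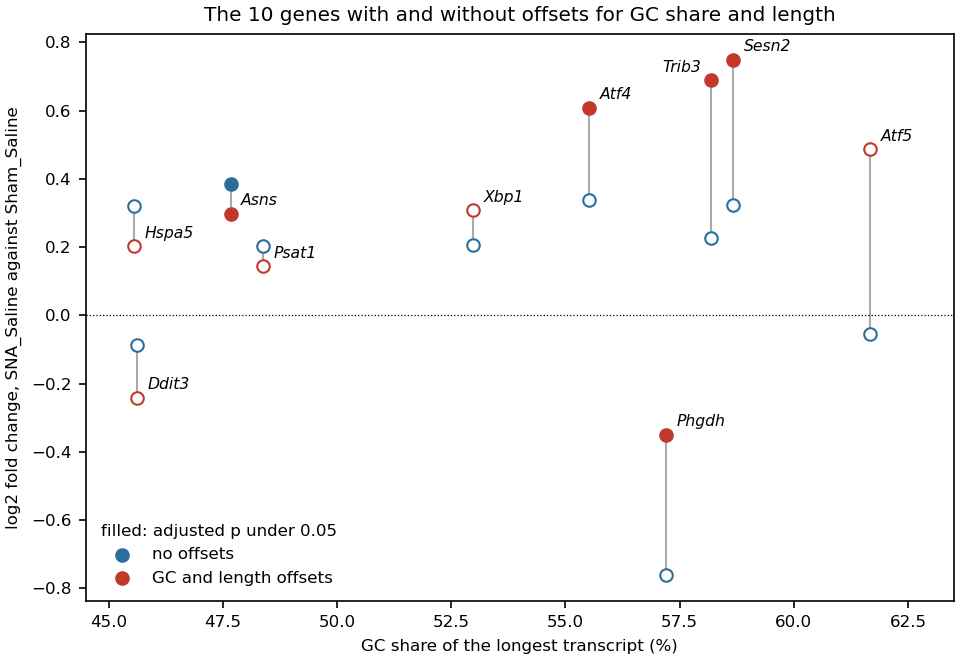
Log2 fold change in SNA_Saline against Sham_Saline (vertical axis) of the 10 genes by the GC share of their longest transcript (horizontal axis, %), without offsets (blue) and with offsets for GC share and length (red), joined by a line. The 3 richest members, Trib3, Sesn2 and Atf5, moved up most with the offsets (Sesn2 from 0.32 to 0.75), while Asns, Psat1, Hspa5 and Ddit3, under 50% GC, moved down.

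Lists of genes of the wider pathway were read in the same comparison, in which 2.73% of all genes were called, 2.16% higher. The lists were chosen with earlier results of these data known. Of 12 kinases, phosphatase subunits and eIF2 or eIF2B genes, 0 passed edgeR's test; the smallest p was that of Ppp1r15b, a phosphatase subunit that undoes eIF2 phosphorylation (0.34, adjusted p = 0.118). Of 23 other ATF4 and CHOP target genes in the table (27 listed), 2 were higher and 0 lower. They were Atf3, a stress factor that is also a standard marker of axotomised neurons (62.6 ± 8.81 to 443.9 ± 21.5 CPM, SD, n = 3; log2 fold change 2.82, edgeR adjusted p = 1.55e-07), and Mthfd2, a mitochondrial folate enzyme (34.4 ± 2.80 to 45.0 ± 2.04 CPM, SD, n = 3; 0.39, edgeR adjusted p = 0.0409). Of 13 tRNA charging and export genes, 1 rose, the glycyl-tRNA synthetase Gars (334.5 ± 8.17 to 440.0 ± 20.3 CPM, SD, n = 3; 0.40, edgeR adjusted p = 0.0183).

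On the side of the endoplasmic reticulum, 1 of 8 sensors and membrane-bound factors passed, beside the same 2.73% of all genes. This was Creb3l1, a transcription factor released from the membrane by cleavage, which fell from 10.3 ± 1.64 to 6.24 ± 1.02 CPM (SD, n = 3; log2 -0.72, edgeR adjusted p = 0.0239) and did not pass with the GC and length offsets (-0.28, adjusted p = 0.357). Of 17 chaperones and folding enzymes 0 passed, with the smallest p for Dnajb9, a cochaperone of BiP (0.55, edgeR adjusted p = 0.0653). Of 11 genes of the degradation pathway in the table (12 listed), 1 rose, Ufd1l, which helps to extract proteins for the proteasome (0.33, edgeR adjusted p = 0.0428). Of 8 genes of the mitochondrial unfolded protein response 0 passed, with the smallest p for Hspa9 (0.38, edgeR adjusted p = 0.108). List medians ran from -0.03 to 0.12 on the log2 scale.

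**Figure D4:**
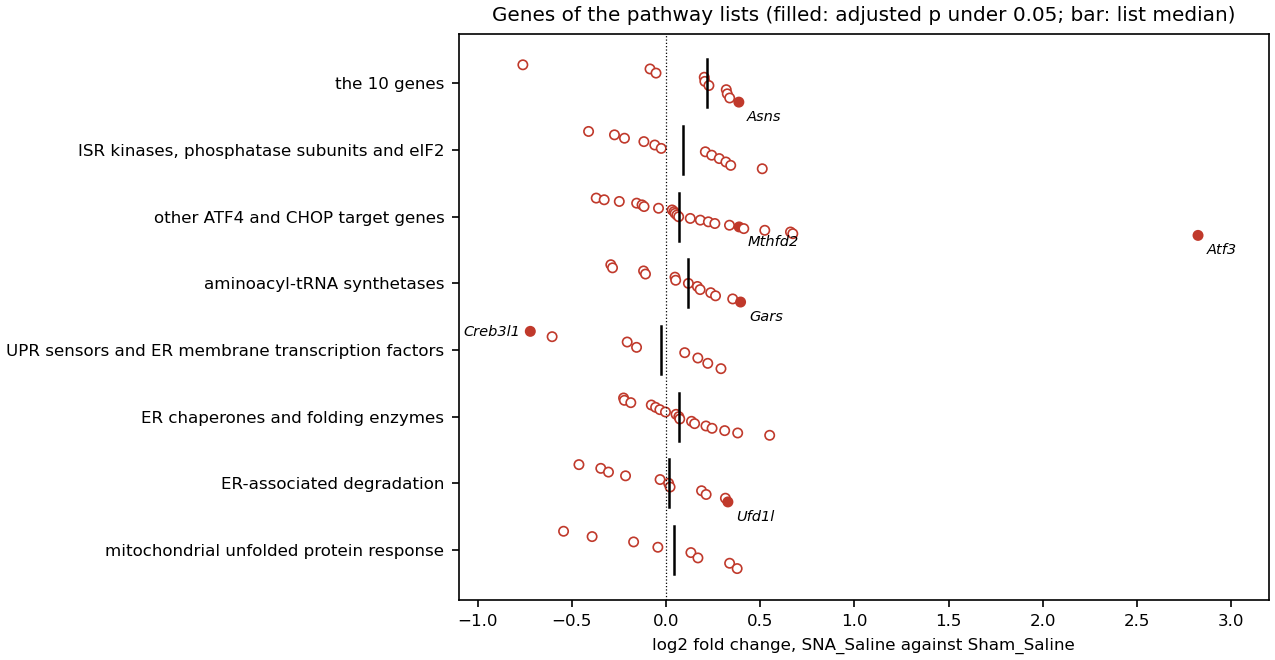
Log2 fold change in SNA_Saline against Sham_Saline of the 10 genes and of the genes of each pathway list, 1 point per gene and a bar at the list median. The genes with an adjusted p under 0.05 are filled and named, and Atf3 at 2.82 stands far from every other gene shown.

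With the offsets, 7 of the 23 ATF4 and CHOP targets were called, all higher, against 7.44% of all genes (5.17% higher): Atf3 (2.90), Chac1 (1.08), a glutathione-degrading enzyme, Trib1 (0.74), Mthfd2 (0.36), and the amino acid transporters Slc7a3 (0.64), Slc7a5 (0.41) and Slc7a1 (0.30). The same fit called 3 of the 12 genes of eIF2 control higher. These were the kinase PERK, Eif2ak3 (0.32), and both phosphatase subunits, Ppp1r15a (0.62) and Ppp1r15b (0.35), and it called 3 of 13 tRNA genes (Cars 0.36, Gars 0.39 and Iars 0.34), 0 of 8 sensors, 1 of 17 chaperones (Dnajb9, 0.28), 1 of 11 degradation genes (Ufd1l) and 0 of 8 mitochondrial genes.

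The second comparison asked what injury of the central branch does. In DCA against LAM, 0 of the 10 members passed edgeR's test, as did 0% of all genes. DESeq2 called 0 members and 0.0127% of all genes. In edgeR 1 of 10, Phgdh, had an unadjusted p under 0.05, against 5.04% of all genes, and in DESeq2 Asns had one too. Asns had 250.1, 244.1 and 246.0 CPM in LAM and 239.0, 230.2 and 198.3 in DCA. All 3 injured samples were below the controls, and the log2 difference of -0.15 had an interval of -0.33 to 0.03. Trib3, at 1.75 to 2.38 CPM in LAM and 2.60 to 3.47 in DCA, was the other member without overlap, on the higher side (0.52, interval -0.09 to 1.12). Members without overlap were thus 2 of 10, against 21.7% of all genes (11.9% higher and 9.85% lower). Phgdh had 17.4, 24.8 and 20.9 CPM in LAM and 27.8, 23.8 and 42.0 in DCA, an overlap with 1 high sample (0.57, interval 0.016 to 1.12). Atf4 was at 190.9 ± 5.81 and 186.2 ± 17.7 CPM (SD, n = 3 each), and the interval of its log2 difference ran from -0.27 to 0.19. With the GC and length offsets 0 members were called, as were 0% of all genes, and the differences were 0.23 for Phgdh, 0.17 for Trib3 and -0.28 for Atf4.

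The difference between the responses was tested directly, as the sciatic log2 fold change less the dorsal column one. Asns passed, with a difference of 0.54 (SE 0.12, 95% interval 0.28 to 0.79; edgeR adjusted p = 0.0386), the 1 of 10 members called, against 1.61% of all genes (1.23% higher). At an unadjusted p under 0.05 there were 4 of 10 members, against 31.4% of all genes. Its 2 components had opposite signs, 0.39 and -0.15. With the lane as a block the difference was the same size (0.54) with an adjusted p of 0.0690, and no member passed, against 0.75% of all genes. Asns kept the call in 12 of 22 alternative fits, with differences from 0.40 to 0.60. It lost the call without Sham_Saline replicate 2, SNA_Saline replicate 1 or 2, any LAM sample, or DCA replicate 2 or 3, with differences of 0.46 to 0.56, or when only the 4 groups compared were fitted (0.54, adjusted p = 0.0664; 0.961% of all genes called). Phgdh had the largest difference by size, -1.33 (interval -2.11 to -0.55, edgeR adjusted p = 0.0702). Hspa5 (0.57, adjusted p = 0.115) and Atf4 (0.37, adjusted p = 0.122) did not pass either. Without Sham_Saline replicate 1, edgeR called Phgdh (-1.58, adjusted p = 0.0153) and Hspa5 (0.68, adjusted p = 0.0386) beside Asns. The share of all genes called in that fit is not given for this test, so these calls cannot be set against all genes. Without the same library, 37.3% of all genes were called in SNA_NAC against Sham_Saline and 31.8% in Sham_Saline against LAM. With the GC and length offsets 4 members were called, against 5.11% of all genes: Atf4 (0.89), Asns (0.40) and Sesn2 (0.95) higher and Phgdh (-0.58) lower. DESeq2 called Asns and Phgdh, against 11% of all genes. Of the pathway lists, Atf3 alone passed edgeR's test of the difference (1.68, adjusted p = 0.00229).

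The surgical controls were also set against each other. In Sham_Saline against LAM, 0 of 10 members passed edgeR's test, as did 0.0699% of all genes, and the log2 differences ran from -0.27 for Asns to 0.89 for Phgdh. At an unadjusted p under 0.05 there were 5 of 10, against 30.3% of all genes. Asns was lower in Sham_Saline than in LAM in every sample (log2 difference -0.27, interval -0.45 to -0.09; edgeR adjusted p = 0.104), so that LAM at 246.7 ± 3.06 CPM (SD, n = 3) stood between Sham_Saline and SNA_Saline. Ddit3 was higher in each Sham_Saline sample than in each LAM sample (14.2, 16.7 and 17.8 CPM), with a difference of 0.81 (interval 0.36 to 1.27; edgeR adjusted p = 0.104). Sesn2 also had no overlap, at 2.79, 3.09 and 2.92 CPM in LAM (0.60, edgeR adjusted p = 0.120). Members without overlap numbered 3 of 10, 2 higher and 1 lower, against 30.6% of all genes (16.4% and 14.2%). DESeq2 called Ddit3, Asns and Phgdh, against 7.25% of all genes. Without Sham_Saline replicate 1, edgeR called 5 members (Atf4, Atf5, Ddit3, Trib3 and Phgdh), all higher in Sham_Saline, against 31.8% of all genes. The sham libraries left in that fit are those with the GC slopes of 0.43 and 0.16. With the GC and length offsets 0 members were called, against 0.165% of all genes. Atf4 (-0.23, interval -0.50 to 0.04) and Atf5 (-0.43, interval -0.76 to -0.11; edgeR adjusted p = 0.146) then had the opposite sign. Trib3 and Sesn2 were at 0.03 each and Phgdh at 0.34, while Ddit3 stayed at 0.97 (edgeR adjusted p = 0.101).

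The antioxidant comparison, SNA_NAC against SNA_Saline, called 0 of 10 members in edgeR and in DESeq2, and 0% of all genes passed. At an unadjusted p under 0.05 there were 0 of 10, against 2% of all genes. Asns had 247.8, 265.4 and 251.2 CPM with N-acetyl-cysteine, inside or just below the range without it, and the log2 difference of -0.07 had an interval of -0.25 to 0.11. Atf4 had 248.1, 255.6 and 225.6 CPM, each below every SNA_Saline value (-0.14, interval -0.37 to 0.08), which made it the 1 member without overlap, against 14.9% of all genes, 5.63% in that direction. The other 8 differences ran from -0.23 for Trib3 to 0.10 for Hspa5. Intervals were widest for the scarce Trib3 (-0.82 to 0.35) and Sesn2 (-0.44 to 0.52) and for Phgdh (-0.54 to 0.57), and for Sesn2 and Phgdh they hold a change as large as that of Asns after injury (0.39) in either direction.

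SNA_NAC, like SNA_Saline, was also set against Sham_Saline, and every comparison with Sham_Saline shares those control samples. In SNA_NAC against Sham_Saline 0 of 10 members passed in edgeR (3.32% of all genes did), 5 of 10 had an unadjusted p under 0.05 (27.6% of all genes), and DESeq2 called Asns (7.78% of all genes). The log2 differences were 0.32 for Asns (edgeR adjusted p = 0.0554), 0.42 for Hspa5 (adjusted p = 0.131), 0.22 for Psat1, 0.21 for Xbp1, 0.37 for Sesn2 and -0.74 for Phgdh (adjusted p = 0.109). Asns, Psat1, Sesn2, Xbp1 and Hspa5 had no overlap, 5 of 10, all higher, against 21.2% of all genes and 11.5% in that direction. Hspa5 was highest in this group, at 472.4, 614.2 and 517.4 CPM. Without Sham_Saline replicate 1 edgeR called 4 members (Asns and Hspa5 higher, Atf5 and Phgdh lower), against 37.3% of all genes. The offsets gave 3 (Atf4, Asns and Sesn2, all higher), against 7.79%, and turned Atf5 to 0.39 (interval 0.07 to 0.71; edgeR adjusted p = 0.123). From the pathway lists, Eif2ak3 (0.40), Atf3 (2.84), Trib1 (0.53), Gars (0.41) and the isoleucyl-tRNA synthetase Iars (0.53) were called higher and Creb3l1 (-0.65) lower.

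The oxidant alone gave no call. In Sham_H2O2 against Sham_Saline 0 of 10 members passed in edgeR or DESeq2, 0% of all genes passed in edgeR and 0.0254% in DESeq2, and 0 of 10 had an unadjusted p under 0.05 in edgeR, against 9.15% of all genes. In DESeq2 Phgdh had one of 0.0453. No member was free of overlap, against 5.43% of all genes. Asns had 239.5, 214.4 and 233.8 CPM with hydrogen peroxide, of which 1 value lay inside the control range (0.16, interval -0.02 to 0.34). The lowest differences were those of Phgdh (-0.53, interval -1.08 to 0.02), Trib3 (-0.53, interval -1.16 to 0.11) and Ddit3 (-0.37, interval -0.82 to 0.09), the members whose Sham_Saline values were most spread relative to their mean. With the GC and length offsets 0 members and 0% of all genes were called, and Phgdh was at -0.12, Trib3 at -0.11 and Ddit3 at -0.46. Atf5 turned from -0.22 to 0.30, and Atf4 (0.35) and Sesn2 (0.50) each had an edgeR adjusted p of 0.568. From the pathway lists, 0 genes were called here, in SNA_NAC against SNA_Saline or in DCA against LAM.

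Over the 6 groups, the order of the means differed from member to member. These are means of CPM without the GC and length offsets, and the offsets can change the order. With them, Sham_Saline against LAM was at -0.23 for Atf4 and 0.03 for Sesn2. Atf4 was lowest in DCA and LAM and highest in SNA_NAC and SNA_Saline, and its highest mean was 1.44 times its lowest. Xbp1 and Hspa5 had DCA at the bottom and SNA_Saline and SNA_NAC at the top, with ratios of 1.27 and 1.47. Asns had Sham_Saline at the bottom, then DCA, Sham_H2O2, LAM, SNA_NAC and SNA_Saline, with a ratio of 1.31. Phgdh and Ddit3 were highest in Sham_Saline and lowest in LAM, with ratios of 1.86 and 1.76. Sesn2 had the largest ratio, 1.95, from LAM to SNA_NAC. Of the 5 steps between neighbours in each order, at most 1 per gene was free of overlap, and for Atf5, Ddit3, Psat1, Phgdh and Hspa5 there was none.

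The genes whose profile over the 18 libraries lay closest to that of Asns were Rars, the arginyl-tRNA synthetase, and Tsc22d1, a leucine-zipper protein. Among 12981 genes with a mean of at least 50 counts, their centred log2 CPM differed from that of Asns by a root mean square of 0.044 and 0.052. Rars had 73.4 ± 3.11 CPM in Sham_Saline and 93.9 ± 4.20 after sciatic injury (SD, n = 3 each), and 86.0 ± 2.83 CPM in LAM and 78.2 ± 7.93 in DCA (SD, n = 3 each). Tsc22d1 had 375.9 ± 9.62 CPM in Sham_Saline and 479.4 ± 16.9 in SNA_Saline (SD, n = 3 each). Both were picked for their likeness to Asns over these same libraries, so their differences between groups restate that choice.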

How the data were processed

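Libraries were made with a stranded mRNA kit and run 6 to a lane on 3 lanes, per the labels' protocols. TopHat2 2.0.12, HTSeq 0.6.0 and the mm10 build are named in the submitters' processing notes; the strand setting of the counting is not given in the sources used here. Atf5 and Ddit3 share exon sequence with genes on the opposite strand, so their counts are uncertain. In the GENCODE annotation used here for the loci, Ddit3 also overlaps another annotated Ddit3 gene on its own strand. Whether the annotation used for the counts holds that gene was not checked. If it does, reads of Ddit3 can be ambiguous whatever the strand setting. The deposited counts are whole reads per gene with no normalization; the lowest mean in the table is 10.1. The deposited FPKM values of the authors are proportional to the counts within each gene (SD under 0.01 log2) for 15645 of 15730 genes and all 10 members, and served only for levels between genes and for limma.

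From the counts, edgeR 4.0.16 (R 4.3.3) gave every test (TMM, filterByExpr, quasi-likelihood test, all 18 samples, no block; Benjamini-Hochberg over 15730 genes, threshold 0.05). Standard errors are the log2 difference divided by the square root of F, and intervals are 95%. The members and lists were chosen with earlier results of these data known. All 10 members were named, with every list gene past the threshold, or, where none passed, the one with the smallest p, and for each called member the 2 genes of closest profile. Alternatives were DESeq2 1.42.0, limma 3.58.1 on log2(FPKM + 1) and log2(FPKM + 0.1), upper-quartile scaling, no filter, a floor of 10 counts per library, fits of only the contrast's own groups, each sample left out, the replicate block, and offsets for GC share and length (splines with 5 degrees of freedom, longest GENCODE transcript). Replicate numbers equal lane numbers in the labels, so the pairing is of lanes and not of animals; same-numbered samples correlated on average (across genes) by -0.24 in SNA_Saline against Sham_Saline, 0.067 in DCA against LAM, 0.089 in SNA_NAC against SNA_Saline, 0.30 in Sham_H2O2 against Sham_Saline and -0.36 in SNA_NAC against Sham_Saline. In Sham_Saline against LAM it was 0.31, with 0.24, 0.42 and 0.27 in the 3 lanes. Only edgeR, without and with the offsets, was tried on simulated counts, for the sciatic and dorsal column comparisons. The GC slopes there were drawn at random over the libraries. The other alternatives and the difference between the responses were not simulated. Figures were drawn with matplotlib 3.10.9.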

Additional observations from a re-analysis of the deposited data

Results flagged for a closer look

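The response to sciatic injury was tested directly against that to dorsal column injury. In the fit of all 18 samples without a block, 1 member and 1 gene of the pathway lists passed. For Asns the difference was 0.54 on the log2 scale (edgeR adjusted p = 0.0386). Its level was higher in 3 of 3 samples after sciatic injury, and lower in 3 of 3 after dorsal column injury, than in the controls of each. The call held in 12 of 22 alternative fits, and with the replicate block the edgeR adjusted p was 0.0690. In Sham_Saline against LAM, the controls, Asns was at -0.27 (edgeR adjusted p = 0.104), lower in every Sham_Saline sample. For Atf3 the difference between the responses was 1.68 (SE 0.25, edgeR adjusted p = 0.00229). Its level was 62.6 ± 8.81 CPM in Sham_Saline, 443.9 ± 21.5 in SNA_Saline, 13.8 ± 2.64 in LAM and 30.9 ± 7.69 in DCA (SD, n = 3 each). The controls of Atf3 differed as well, by 2.17 in Sham_Saline against LAM (edgeR adjusted p = 4.09e-05).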

How the results depend on the processing

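With 3 pools a group, the number of members called moved with the fit. Percentages in brackets are the shares of all genes called, given for some fits only. Those given below run from 0.0699% to 37.3%, so a count of members without its share is not a result about the members. In SNA_Saline against Sham_Saline 1 member was called (2.73%). The number was 5 with the GC and length offsets (7.44%) and 4 with those offsets and the replicate block (6.44%). It was 0 when fitted on its own groups alone (0.422%), and 0 to 2 when 1 sample was left out. In SNA_NAC against Sham_Saline 0 members were called (3.32%). The number was 3 with the offsets (7.79%), 3 with offsets and replicate block, and 1 with DESeq2 (7.78%). With a sample left out it was 0 to 4, and was 4 without Sham_Saline replicate 1 (37.3%). In Sham_Saline against LAM 0 members were called (0.0699%). The number was 3 with DESeq2 (7.25%). With a sample left out it was 0 to 5, and was 5 without Sham_Saline replicate 1 (31.8%). For the difference between the injury responses 1 member was called (1.61%). The number was 0 with the replicate block (0.75%), 4 with the offsets (5.11%) and 4 with offsets and replicate block. It was 2 with DESeq2 (11%), 0 on its own groups alone (0.961%), and 0 to 3 with a sample left out. The block alone changed no other call of a member. The dorsal column, antioxidant and oxidant comparisons gave 0 in every alternative run. The fits with fewer groups hold fewer samples; the other causes were not tested. Of 70 member differences, 28 changed sign in at least 1 alternative, 12 of them with the offsets, and no main value that changed sign, nor its value of the opposite sign, was called. Between alternatives, 5 differences were called in 1 direction and had the other sign elsewhere, uncalled. Without Sham_Saline replicate 1, Atf5 in SNA_NAC against Sham_Saline (-0.44) and Atf4 (0.28) and Atf5 (0.46) in Sham_Saline against LAM were called, and with the offsets they were at 0.39, -0.23 and -0.43. Trib3 in SNA_Saline against Sham_Saline was called with the offsets (0.69) and at -0.08 without that library. Sesn2 in the difference between the responses was called with the offsets (0.95) and at -0.08 without SNA_Saline replicate 3. Depth limits Trib3 and Sesn2 most.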
